A study of Mus musculus with 10 samples.

Results

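The 9 genes described here encode transcription factors that specify macrophages in general, and red pulp macrophages of the spleen in particular. They are Spic, Spi1, Irf8, Maf, Pparg, Nr1h3, Bach1, Cebpa and Cebpb. They were taken as a list of gene names, drawn up with earlier results of these data known. Each symbol matched 1 of the 55414 Ensembl genes in the deposited count table. All 9 passed the filter on low counts, which left 14669 genes to test. Expression was measured by sequencing of polyadenylated RNA from mouse splenic macrophages, isolated on magnetic beads by way of the surface antigen F4/80. The libraries came from 5 samples labelled Fpr2KO, from mice that lack the formyl peptide receptor gene Fpr2 (Fpr2-/-), and 5 wild-type C57BL/6N samples (WT). The labels do not give the extent of the Fpr2 deletion, or the sex, age or housing of the mice or the background strain of the knockout line. They also do not say whether the samples of a group are separate animals. The p-values thus cover only how far these libraries vary, and that variation may be technical.

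PU.1, encoded by Spi1, is an ETS-family factor that opens myeloid enhancers and works with C/EBP and IRF factors to set the macrophage programme. Its relative Spi-C, encoded by Spic, is required in mice for red pulp macrophages, the cells that clear aged red cells and recycle their iron. Heme released from red cells causes degradation of the repressor BACH1, which relieves Spic and the heme oxygenase gene Hmox1 from repression. The nuclear receptors PPARγ (Pparg) and LXRα (Nr1h3) sense lipids and sterols, and LXRα is needed in mice for the macrophages of the splenic marginal zone.

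Libraries held between 15865820 and 19060188 counts. Fpr2 had 0 reads in every Fpr2KO library and between 325 and 574 reads in each WT library, as the labels have it. All 16 macrophage markers examined were detected. The gene of the antigen used for isolation, Adgre1, was measured at 525 ± 63.4 CPM in Fpr2KO and 524 ± 60.1 CPM in WT (SD, n = 5 each; CPM is the read count scaled by library size). Transcripts of other cells were also present, and no gene of those lists was at 0. The 16 macrophage markers summed to between 9960 and 12680 CPM in Fpr2KO libraries and between 9968 and 12918 CPM in WT libraries. The 10 B cell markers summed to more in every library. Their sums lay between 13473 and 34741 CPM in Fpr2KO libraries (median 29824) and between 20086 and 44058 CPM in WT libraries (median 23601). Erythroid markers summed to between 4579 and 10863 CPM in Fpr2KO and between 1686 and 6540 CPM in WT, and neutrophil markers to between 537 and 997 CPM in Fpr2KO and between 947 and 1574 CPM in WT.

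By edgeR, with p-values adjusted over all genes to a false discovery rate (FDR) of 0.05, 0 of the 9 genes were called, against a background of 0.0682% of tested genes. DESeq2, which called 1.26% of tested genes, and limma voom also called 0 of the 9. At an unadjusted p under 0.05, 3 of the 9 differed, all lower in Fpr2KO: Bach1, Cebpb and Cebpa. Of all genes tested, 9.8% reached that level, made up of 4.88% higher and 4.92% lower in Fpr2KO. The log2 fold changes of the other 6, Spic, Spi1, Irf8, Maf, Pparg and Nr1h3, lay between -0.04 and 0.13. The median over the 9 genes was 0.02, beside 0.01 over all genes tested. The levels of the groups overlapped for each of the 9, whereas 1.39% of all tested genes had groups that did not overlap.

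**Figure D1:**
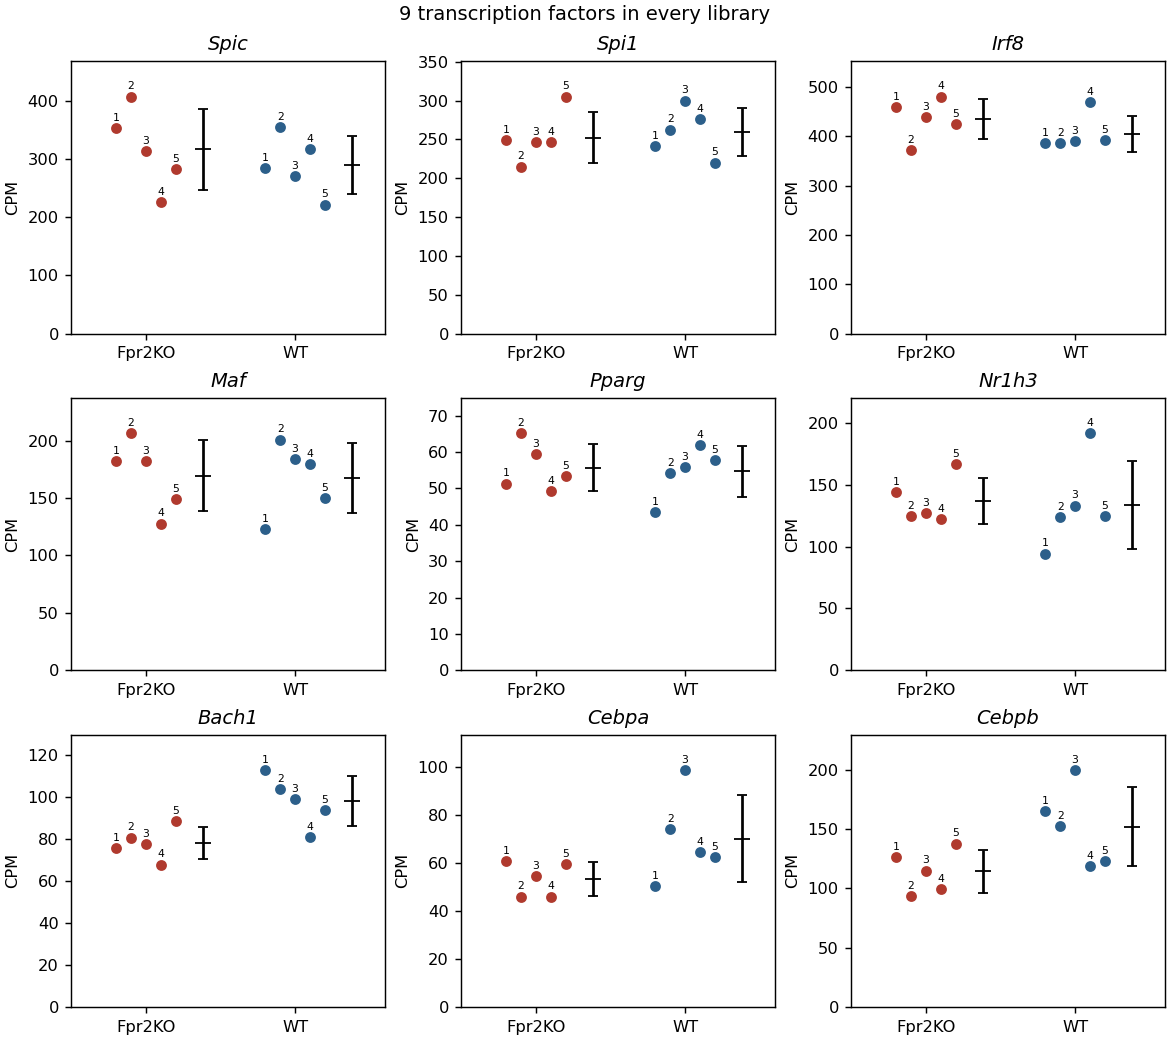
CPM of each of the 9 genes (vertical axes, from 0) in the 5 Fpr2KO libraries (red) and the 5 WT libraries (blue), numbered by replicate, with mean and SD in black beside each group. For Bach1, 4 Fpr2KO libraries lie below every WT library, and for Cebpb 3 do. The groups overlap in every panel.

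Spi1, the master regulator of myeloid cells, was measured at 249, 215, 246, 246 and 305 CPM in Fpr2KO replicates 1 to 5, against 241, 263, 300.0, 276 and 220.0 CPM in WT replicates 1 to 5. Both groups covered nearly the same range, with 1 Fpr2KO library above and 1 below all WT libraries. The log2 fold change was -0.04 (SE 0.11, FDR = 0.916 by edgeR). Its 95% interval corresponds to a level in Fpr2KO between 0.831 and 1.13 times that in WT, which bounds the size of a difference without showing that there is none. Spi1 occupies chr2:91082390-91115756, plus strand (GRCm38, GENCODE M21, as for all genes described here).

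Irf8, which pairs with PU.1 and directs monocyte, dendritic cell and B cell development, had 459, 372, 439, 480.4 and 424 CPM in Fpr2KO replicates 1 to 5. In WT replicates 1 to 5 it had 386, 386, 389.9, 469 and 392 CPM. In WT, 4 libraries lay within a few CPM of each other and replicate 4 stood well above them, within the range of the Fpr2KO libraries. The log2 fold change was 0.10 (SE 0.09, FDR = 0.716 by edgeR), and 0.16 without WT replicate 4. The level in Fpr2KO was between 0.942 and 1.23 times that in WT by the 95% interval. B cells and dendritic cells also express Irf8, and in bulk RNA fewer cells of a type and less RNA per cell cannot be told apart. With group means subtracted, Irf8 and the B cell markers had a Pearson's r of 0.32 over the 10 libraries (permutation p = 0.395) and a Spearman's rho of 0.42 (permutation p = 0.247). The adjusted p for r was 0.965 in a family of 153 relations, and r became 0.27 with the 2 farthest libraries left out. The part of B cells in the Irf8 values was not tested further. Irf8 occupies chr8:120736358-120756694, plus strand.

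The C/EBP factors had the lowest log2 fold changes of the 9. C/EBPα, encoded by Cebpa, commits progenitors to the myeloid lineage, and C/EBPβ, encoded by Cebpb, drives monocyte survival and inflammatory gene expression and is itself induced by stress and inflammatory stimuli. Cebpb had 126, 93.2, 115, 99.4 and 138 CPM in Fpr2KO replicates 1 to 5, against 165, 153, 199.8, 119 and 123 CPM in WT replicates 1 to 5. Of the Fpr2KO libraries, 3 lay below every WT library, while replicates 1 and 5 lay among the lower WT libraries. The means were 114 ± 18.4 CPM in Fpr2KO and 152 ± 33.2 CPM in WT (SD, n = 5 each; log2 fold change -0.41, SE 0.15, unadjusted p = 0.0147, FDR = 0.397 by edgeR).

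Cebpa had 60.8, 46.0, 54.5, 46.0 and 59.4 CPM in Fpr2KO replicates 1 to 5, against 50.4, 74.0, 98.6, 64.6 and 62.3 CPM in WT replicates 1 to 5. WT replicate 3 was far the highest, and WT replicate 1 lay within the Fpr2KO range. The log2 fold change was -0.39 (SE 0.15, unadjusted p = 0.0252, FDR = 0.443 by edgeR). It was -0.24 without WT replicate 3, and p was above 0.05 in 4 of the 10 leave-one-out fits (without WT replicate 2 or 3 or Fpr2KO replicate 2 or 4). The ratio of Cebpb to Cebpa in CPM, not corrected for length, was 2.14 ± 0.112 in Fpr2KO and 2.24 ± 0.591 in WT (SD, n = 5 each; exact permutation p = 0.992, two-sided, adjusted p = 0.992 over 5 ratios). The Fpr2KO ratios lay between 2.03 and 2.32. In WT they lay between 1.84 and 2.06 apart from replicate 1 at 3.28.

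Cebpa occupies chr7:35119293-35121928 and Cebpb chr2:167688915-167690418, both on the plus strand. Their promoter windows are shown because these related genes had similar differences between the groups. Each runs from 250 bases before to 50 bases after the RefSeq transcription start in GRCm38.p6, and capitals mark the matches to the motifs given after them.
Cebpa, chr7:35119043-35119342, plus strand: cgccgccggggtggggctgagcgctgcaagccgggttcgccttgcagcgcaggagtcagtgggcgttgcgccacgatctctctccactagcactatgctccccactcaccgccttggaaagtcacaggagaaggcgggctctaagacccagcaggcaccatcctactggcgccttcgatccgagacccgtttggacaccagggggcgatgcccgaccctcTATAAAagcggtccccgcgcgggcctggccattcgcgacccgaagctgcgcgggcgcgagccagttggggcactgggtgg
Cebpb, chr2:167688665-167688964, plus strand: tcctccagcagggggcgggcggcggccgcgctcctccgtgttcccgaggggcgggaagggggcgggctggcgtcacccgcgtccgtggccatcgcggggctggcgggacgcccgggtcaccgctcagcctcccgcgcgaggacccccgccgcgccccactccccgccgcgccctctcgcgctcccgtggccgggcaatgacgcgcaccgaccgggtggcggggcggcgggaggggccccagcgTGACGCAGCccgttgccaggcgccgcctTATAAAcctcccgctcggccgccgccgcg
Both were searched on both strands for a PU.1 box (GAGGAA), a C/EBP site (TTGCNNAA), a MAF and BACH core site (TGCTGA), an antioxidant element (TGACNNNGC), an AP-1 site (TGANTCA), an interferon-stimulated response element (GAAA, NN, GAAA) and a TATA box (TATAAA). The antioxidant element and the MAF and BACH core site can overlap in a full MAF site. The Cebpa window held a TATA box that began 30 bases before the start. The Cebpb window held an antioxidant element that began 7 bases before it and a TATA box that began 21 bases after it. Among 32544 distinct windows of all genes, 13.6% held the TATA box and 12.4% the antioxidant element. Neither window held the letters of the C/EBP site, which 10.8% of windows did, or those of the AP-1 site, found in 7.79%. Some Cebpb reads are of uncertain origin. Its exons overlap those of Tmem189 on the other strand, 19.6% of its 31-base sequences occur in another gene, and the sources used here do not give the strand setting of the counting. Tmem189 was measured at 44.2 ± 4.64 CPM in Fpr2KO and 45.7 ± 5.45 CPM in WT (SD, n = 5 each).

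Across libraries, Cebpb varied with the immediate early genes, 10 genes such as Fos and Egr1 that are induced within minutes by stimulation or tissue dissociation. Their mean log2 CPM relative to the WT mean was -0.21, -0.59, -0.46, -0.47 and -0.17 in Fpr2KO replicates 1 to 5. In WT replicates 1 to 5 it was 0.15, 0.01, 0.27, -0.17 and -0.26. The order of the libraries was close to that of Cebpb, with WT replicate 3 highest and Fpr2KO replicate 2 lowest in both. After subtracting group means, Pearson's r was 0.96 over the 10 libraries (permutation p = 0.000556) and Spearman's rho 0.95 (permutation p = 0.000764), with r = 0.93 without the 2 farthest libraries. Adjusted over 153 relations between the 9 genes and 17 lists, these permutation values were p = 0.0531 for r and p = 0.117 for rho, so the relation missed a threshold of 0.05 after correction. Of the 10 immediate early genes, 9 were lower in Fpr2KO at an unadjusted p under 0.05, and none passed the FDR by edgeR or limma voom, while DESeq2 called Fos and Egr1. Their median log2 fold change was -0.39, close to the -0.41 of Cebpb and the -0.39 of Cebpa. Cebpa itself had a Pearson's r of 0.55 with the list (permutation p = 0.14, adjusted p = 0.693), which became 0.15 without the 2 libraries farthest in the list. Spearman's rho was 0.67 (permutation p = 0.0542). Cebpb also varied with the 6 nonclassical monocyte markers (r = 0.87 with group means subtracted, permutation p = 0.000694, adjusted p = 0.0531 over the same 153 relations). Spearman's rho was 0.83 (permutation p = 0.00882, adjusted p = 0.45), and r was 0.76 with the 2 farthest libraries left out. All 6 of these markers had lower estimates in Fpr2KO (median log2 fold change -0.19), 1 of them at an unadjusted p under 0.05 and none past the FDR by edgeR, DESeq2 or limma voom. They summed to between 1203 and 1874 CPM in Fpr2KO and between 1464.5 and 2083 CPM in WT. These markers include Nr4a1, which is also an immediate early gene, so the relations of Cebpb with the 2 lists are not independent. The part of sample handling and of monocytes in the C/EBP values was not tested.

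**Figure D2:**
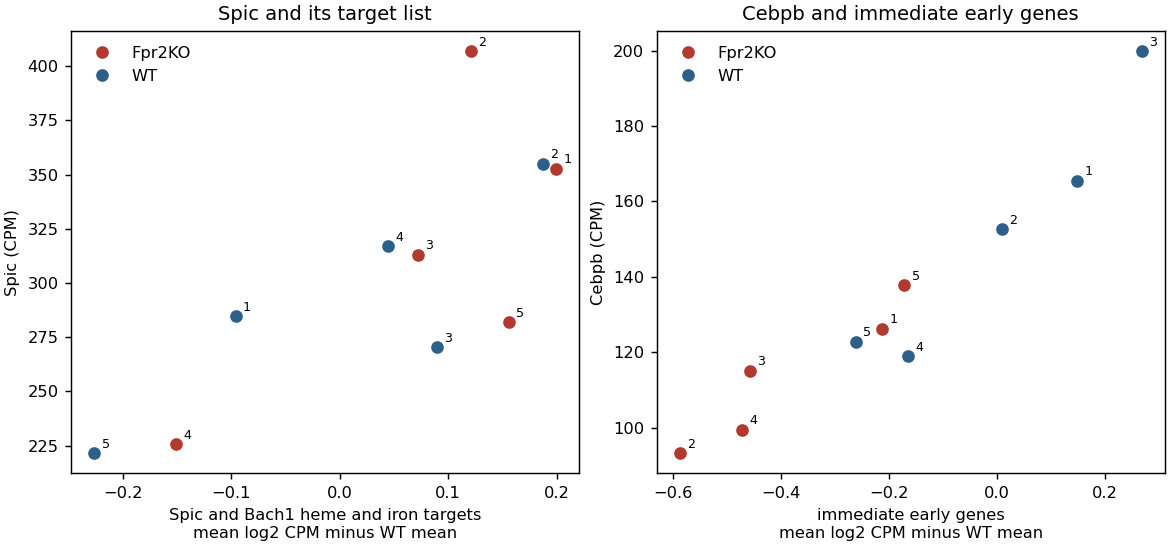
Left, Spic (CPM) against the mean log2 CPM of the 14 Spi-C or BACH1 target genes of the heme and iron list, relative to the WT mean. Right, Cebpb (CPM) against the mean log2 CPM of 10 immediate early genes on the same kind of scale. Each point is a library, numbered by replicate, with Fpr2KO in red and WT in blue. In the right panel Fpr2KO replicates 2, 3 and 4 are at the lower left and WT replicates 1, 2 and 3 at the upper right.

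Among genes known to respond to C/EBP factors, all 12 tested had lower estimates in Fpr2KO, with a median log2 fold change of -0.50. Some of the 12 were low in level, with means down to 0.678 CPM in Fpr2KO and 0.721 CPM in WT. At an unadjusted p under 0.05, 6 of the 12 were lower and 0 higher, and none passed the FDR by edgeR or limma voom. DESeq2 called 3, Csf3r, Lcn2 and Hp. The granulocyte colony-stimulating factor receptor gene Csf3r was measured at 252 ± 56.7 CPM in Fpr2KO and 395 ± 88.7 CPM in WT (SD, n = 5 each; log2 fold change -0.65, SE 0.18, FDR = 0.265 by edgeR). The lysozyme gene Lyz2 was measured at 1866 ± 287 CPM in Fpr2KO and 2428.5 ± 342 CPM in WT (log2 fold change -0.38, SE 0.12, FDR = 0.335 by edgeR). Lcn2, which sequesters bacterial siderophores, and Hp, which encodes haptoglobin, were at -0.83 and -0.72 on the log2 fold change scale, both with an SE of 0.22. Several of these genes, Csf3r and Lcn2 among them, are also in the list of neutrophil markers, so the 2 lists are not independent. All 14 neutrophil markers tested had lower estimates, 9 of them at an unadjusted p under 0.05, with a median of -0.64. After subtracting group means, Cebpb and this target list had a Pearson's r of 0.75 (permutation p = 0.00826, adjusted p = 0.0417 over 10 relations of a factor with a target list) and a Spearman's rho of 0.81 (adjusted p = 0.0507). For Cebpa, r was 0.66 (permutation p = 0.0131, adjusted p = 0.0417) and rho 0.83 (adjusted p = 0.0507). With the 2 libraries farthest in the factor's own level left out, Pearson's r stood at 0.76 for Cebpb and 0.92 for Cebpa. The neutrophil markers had a Pearson's r of 0.41 with Cebpb (permutation p = 0.201, adjusted p = 0.75 over 153 relations). It was 0.36 without the 2 libraries farthest in the neutrophil markers. With Cebpa, r was 0.34 (permutation p = 0.227, adjusted p = 0.774), and 0.03 without those 2 libraries. The checks on the target list and on the neutrophil markers left out libraries by different measures and cannot be compared. The part of neutrophils in these values was not tested further. Of the other C/EBP family genes, 0 of 4 were at an unadjusted p under 0.05 (log2 fold changes Cebpd -0.09, Cebpe 0.01, Cebpg -0.18 and Ddit3 -0.01; none past the FDR by edgeR, DESeq2 or limma voom).

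Bach1 had the smallest p-value of the 9. It encodes the heme-sensing repressor that pairs with small MAF proteins on antioxidant and heme-response genes. Fpr2KO replicates 1 to 5 had 75.7, 80.8, 77.9, 67.9 and 88.5 CPM, against 113, 104, 99.2, 81.2 and 93.8 CPM in WT replicates 1 to 5. All Fpr2KO libraries but replicate 5 lay below the lowest WT library, replicate 4. The means were 78.1 ± 7.52 CPM in Fpr2KO and 98.2 ± 11.8 CPM in WT (SD, n = 5 each; log2 fold change -0.33, SE 0.10, unadjusted p = 0.00399, FDR = 0.265 by edgeR). The level in Fpr2KO was 0.796 times that in WT, with a 95% interval of 0.69 to 0.918. The log2 fold change stayed between -0.39 and -0.28 when any 1 library was left out, with FDR values between 0.107 and 0.557, and DESeq2 gave an adjusted p of 0.0846. Bach1 occupies chr16:87698945-87733346 on the plus strand, shares 0% of its 31-base sequences with other genes and overlaps no other exon.

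Spic, which BACH1 represses, had 353, 407, 313, 226 and 282 CPM in Fpr2KO replicates 1 to 5, against 285, 355, 270.5, 317 and 222 CPM in WT replicates 1 to 5. The ranges of the groups overlapped, with 1 Fpr2KO library above all WT libraries. The means were 316 ± 68.8 CPM in Fpr2KO and 289.8 ± 50.1 CPM in WT (SD, n = 5 each; log2 fold change 0.13, SE 0.15, FDR = 0.810 by edgeR). The 95% interval runs from 0.868 to 1.37 times the WT level. The estimate was 0.01 without Fpr2KO replicate 2 and 0.22 without Fpr2KO replicate 4. The ratio of Spic to Bach1 in CPM was 4.05 ± 0.809 in Fpr2KO and 2.99 ± 0.653 in WT (exact permutation p = 0.0635, two-sided, adjusted p = 0.317 over 5 ratios, n = 5 each; 0.00794 is the smallest p this design allows).

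Spic occupies chr10:88674772-88685015 on the minus strand, and the RefSeq start used for its promoter window is inside that span. Spic and Bach1 are shown together because the product of Bach1 represses Spic in mice.
Spic, chr10:88682974-88683273, minus strand: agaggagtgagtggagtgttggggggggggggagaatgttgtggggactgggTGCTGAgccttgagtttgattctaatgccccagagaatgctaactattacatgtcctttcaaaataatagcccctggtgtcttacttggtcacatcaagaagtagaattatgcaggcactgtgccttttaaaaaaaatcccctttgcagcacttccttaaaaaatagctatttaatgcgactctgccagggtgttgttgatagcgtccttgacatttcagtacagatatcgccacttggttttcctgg
Bach1, chr16:87698704-87699003, plus strand: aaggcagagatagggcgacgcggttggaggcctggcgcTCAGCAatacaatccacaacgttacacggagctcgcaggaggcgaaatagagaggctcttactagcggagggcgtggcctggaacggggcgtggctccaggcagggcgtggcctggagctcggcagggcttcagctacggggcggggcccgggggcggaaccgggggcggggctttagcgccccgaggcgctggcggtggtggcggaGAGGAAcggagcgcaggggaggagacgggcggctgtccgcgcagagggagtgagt
Capitals mark matches to the same 7 motifs. The Spic window held 1 match, a MAF and BACH core site that began 198 bases before the start. The Bach1 window held the same core site on the other strand, beginning 212 bases before the start, and a PU.1 box beginning 5 bases before it. The letters of the core site occurred in 19.5% of all windows and the PU.1 box in 28.1%, so both are common.

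The genes regulated by Spi-C or BACH1, called the heme and iron list here, numbered 14, all tested, with a median log2 fold change of 0.04. Besides heme and iron genes the list holds surface molecule genes such as Vcam1 and antioxidant genes such as Nqo1. At an unadjusted p under 0.05, 3 were higher and 1 lower in Fpr2KO, and none passed the FDR by edgeR or limma voom. Cd163, the haptoglobin-haemoglobin scavenger receptor, was measured at 383 ± 23.0 CPM in Fpr2KO and 279 ± 39.8 CPM in WT (SD, n = 5 each; log2 fold change 0.46, SE 0.10, FDR = 0.135 by edgeR). DESeq2 called Cd163, as did 1 of the 10 leave-one-out fits. For Blvrb, a biliverdin reductase gene, the estimate was 0.30 (SE 0.13). For the quinone reductase gene Nqo1 it was 0.74 (SE 0.30), at a mean level of 1.56 CPM in Fpr2KO and 0.931 CPM in WT. For the cystine transporter gene Slc7a11 it was -0.66 (SE 0.21). Erythroid cells also express Blvrb, and of the 14 erythroid markers 13 were higher in Fpr2KO at an unadjusted p under 0.05, with a median log2 fold change of 1.23. The part of erythroid cells in these values was not tested. Of the 14 genes of the list, Hmox1, Slc40a1 and Vcam1 had estimates near 0, and were named after their values were seen. Hmox1, the heme-degrading enzyme, was measured at 1308 ± 225 CPM in Fpr2KO and 1240.5 ± 284 CPM in WT (log2 fold change 0.08, SE 0.16, FDR = 0.896 by edgeR). The iron exporter gene Slc40a1 was at -0.03 (SE 0.13), and Vcam1, an adhesion molecule gene, at -0.0019 (SE 0.13), both as log2 fold changes.

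Within groups, Spic and this list varied together. With group means subtracted, Pearson's r was 0.79 (permutation p = 0.0119, adjusted p = 0.0417 over 10 relations), and 0.78 without the 2 libraries farthest in Spic. Spearman's rho was 0.59 (permutation p = 0.0947, adjusted p = 0.237). Bach1 had a Pearson's r of 0.29 with the same list (permutation p = 0.451, adjusted p = 0.501; rho = 0.28), and 0.14 without the 2 libraries farthest in Bach1. The 3 protein-coding genes whose profile over the 10 libraries was most like that of Spic, after subtracting group means, were the ferritin heavy chain gene Fth1, which is in that list, Bnip3l and Prdx1. Their Pearson's r was 0.97, 0.97 and 0.96, the highest among 9357 genes, given as a description. Bnip3l encodes a mitophagy receptor and Prdx1 a peroxiredoxin. For Bach1, the closest genes were Mob3b, Flvcr1, which encodes a heme exporter, and Atxn2, with r between 0.93 and 0.96. Spic also had a Pearson's r of 0.64 with the macrophage markers (permutation p = 0.0682, adjusted p = 0.521 over 153 relations; rho = 0.42). That list shares Hmox1, Slc40a1, Vcam1 and Cd163 with the heme and iron list. All these profiles share the same libraries, depth and cell mixture.

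**Figure D3:**
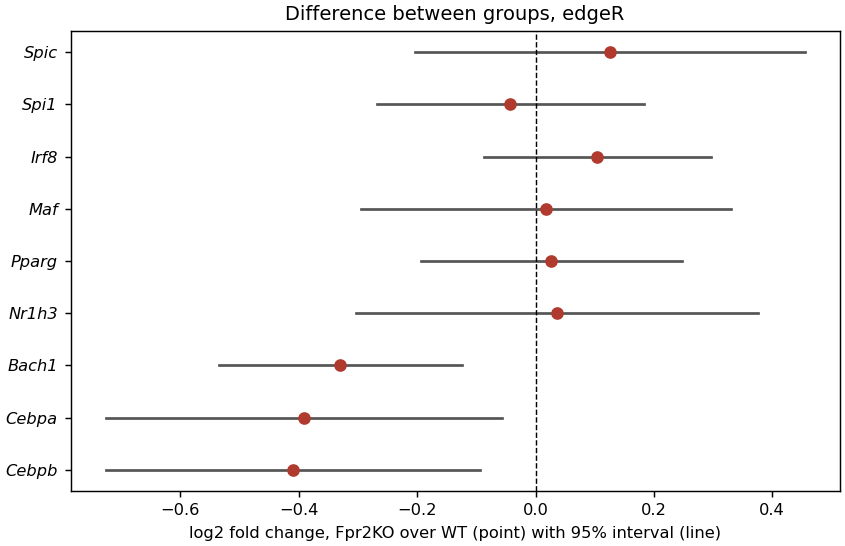
Log2 fold change of each gene, Fpr2KO over WT (points), with its 95% interval from edgeR (lines). The dashed line marks no difference. The intervals of Bach1, Cebpa and Cebpb lie below 0 and those of the other 6 genes include it. None of the 9 passed the FDR over all genes.

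Maf, a large MAF factor that restrains self-renewal and promotes scavenger receptor and anti-inflammatory gene expression, had 182, 206, 182, 128 and 149 CPM in Fpr2KO replicates 1 to 5. WT replicates 1 to 5 had 123, 201, 184, 179.7 and 149.8 CPM. The groups covered the same range (log2 fold change 0.02, SE 0.15, FDR = 0.977 by edgeR; 95% interval 0.815 to 1.26 times WT). Maf and Spic had the highest correlation of the 36 pairs of the 9 genes (r = 0.76 with group means subtracted, permutation p = 0.0211, adjusted p = 0.318; rho = 0.72, permutation p = 0.0344, adjusted p = 0.343). Pearson's r was 0.57 without the 2 farthest libraries. No pair passed the adjustment. Maf also went with the macrophage markers (r = 0.86, permutation p = 0.00618, adjusted p = 0.236 over 153 relations; rho = 0.60, permutation p = 0.076), with r at 0.53 without the 2 farthest libraries. Maf occupies chr8:115682942-115707794 on the minus strand, and its exons overlap those of the antisense gene Gm15655, which averaged 1.56 CPM in Fpr2KO and 0.775 CPM in WT.

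Nr1h3 had 144, 125, 127, 122 and 167 CPM in Fpr2KO replicates 1 to 5, against 94.3, 124, 133, 192 and 125 CPM in WT replicates 1 to 5. The Fpr2KO libraries all lay inside the WT range, which replicates 1 and 4 stretched at either end. The log2 fold change was 0.04 (SE 0.16, FDR = 0.960 by edgeR; 95% interval 0.811 to 1.3 times WT), and 0.20 without WT replicate 4. LXR target genes had a median of 0.05, with 0 of 11 higher and 1 lower at an unadjusted p under 0.05 and none past the FDR by edgeR, DESeq2 or limma voom. Smpdl3a, a phosphodiesterase gene, was that one (130.2 ± 12.7 CPM in Fpr2KO and 165 ± 21.02 CPM in WT; SD, n = 5 each; log2 fold change -0.34, SE 0.10, FDR = 0.262 by edgeR). The cholesterol exporter genes Abca1 and Abcg1 had log2 fold changes of 0.04 and 0.01 (SE 0.13 and 0.08). Of 4 marginal zone macrophage genes, Siglec1, the sialoadhesin of metallophilic macrophages, was measured at 34.9 ± 7.07 CPM in Fpr2KO and 53.9 ± 10.2 CPM in WT (log2 fold change -0.63, SE 0.15, FDR = 0.185 by edgeR). DESeq2 called Siglec1 and neither edgeR nor limma voom did. The scavenger receptor gene Marco had an estimate in the other direction (0.49, SE 0.30). With group means subtracted, Nr1h3 had a Pearson's r of 0.18 with the LXR targets (permutation p = 0.624, adjusted p = 0.624 over 10 relations). With the marginal zone genes r was 0.34 (permutation p = 0.394, adjusted p = 0.492). Nr1h3 occupies chr2:91184061-91202834 on the minus strand, where its exons overlap those of Gm13783.

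Pparg had 51.3, 65.2, 59.5, 49.3 and 53.4 CPM in Fpr2KO replicates 1 to 5, against 43.5, 54.2, 55.9, 62.0 and 57.9 CPM in WT replicates 1 to 5. The ranges overlapped almost fully (log2 fold change 0.03, SE 0.10, FDR = 0.954 by edgeR; 95% interval 0.874 to 1.19 times WT). Of 8 PPARγ target genes, 3 were lower and 0 higher in Fpr2KO at an unadjusted p under 0.05, with a median log2 fold change of -0.30, and none passed the FDR by edgeR or limma voom. Cpt1a, which admits fatty acids to mitochondria, was measured at 108 ± 18.1 CPM in Fpr2KO and 142 ± 8.11 CPM in WT (SD, n = 5 each; log2 fold change -0.39, SE 0.10, FDR = 0.210 by edgeR), and DESeq2 called it. The lipid droplet gene Plin2 was at -0.31 (SE 0.10) and Fabp4, a fatty acid binding protein gene, at -0.77 (SE 0.26). Over the 10 libraries Pearson's r between Pparg and the list was 0.35 (permutation p = 0.353, adjusted p = 0.492; rho = 0.26, permutation p = 0.498), and 0.16 without the 2 farthest libraries. Pparg occupies chr6:115360951-115490399, plus strand.

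**Figure D4:**
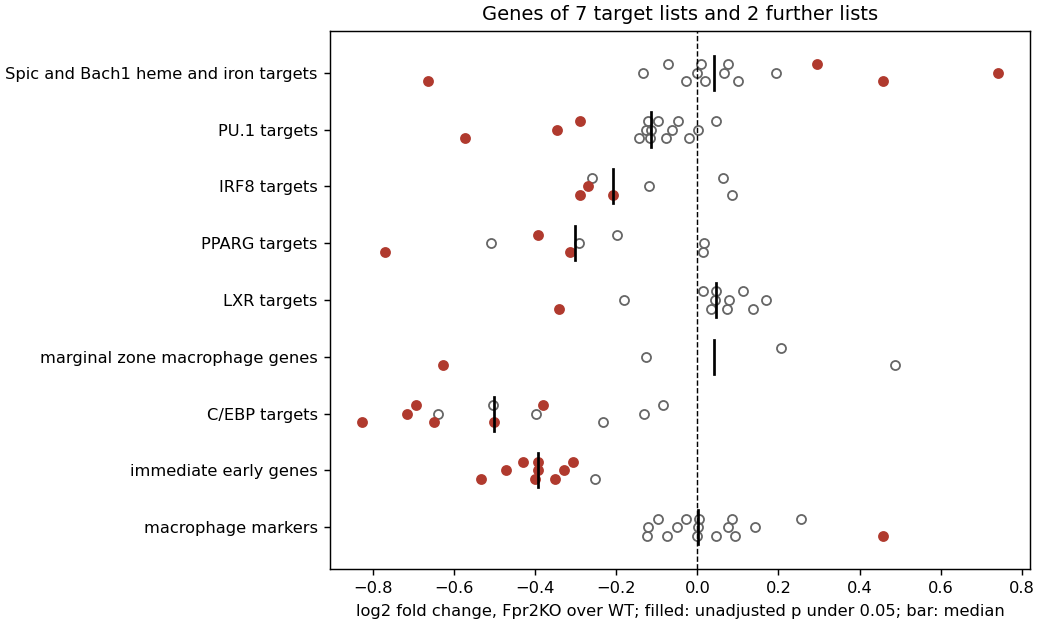
Log2 fold change, Fpr2KO over WT, of each tested gene (points) in 7 lists of genes under 8 of the 9 factors, in the immediate early genes and in the macrophage markers (rows). Filled points have an unadjusted p under 0.05 and black bars are medians. The medians are lowest for C/EBP targets (-0.50), immediate early genes (-0.39) and PPARγ targets (-0.30), and lie within 0.05 of 0 for heme and iron, LXR and marginal zone genes and macrophage markers.

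Genes under PU.1 had a median log2 fold change of -0.11 over 15 genes, with 3 lower and 0 higher at an unadjusted p under 0.05. Of these, Itgam, the CD11b integrin subunit, was measured at 65.4 ± 10.4 CPM in Fpr2KO and 97.4 ± 21.7 CPM in WT (SD, n = 5 each; log2 fold change -0.57, SE 0.15, FDR = 0.209 by edgeR). Cybb, an NADPH oxidase subunit gene also under IRF8, was at -0.29 (SE 0.10), and the scavenger receptor gene Msr1 at -0.35 (SE 0.14). Csf1r, the macrophage growth factor receptor and a classical PU.1 target, was measured at 1845 ± 224 CPM in Fpr2KO and 1975 ± 252 CPM in WT (log2 fold change -0.10, SE 0.11, FDR = 0.789 by edgeR). No gene passed the FDR by edgeR or limma voom, and DESeq2 called Itgam. Neutrophils and monocytes also express Itgam and Cybb, and 5 of 7 classical monocyte markers were lower at an unadjusted p under 0.05, with a median of -0.72. Those markers summed to between 629 and 860 CPM in Fpr2KO and between 872 and 1372 CPM in WT. The part of these cells was not tested. Genes under IRF8 had 3 of 7 lower and 0 higher at an unadjusted p under 0.05 (Cybb and Klf4 among them) and none past the FDR by edgeR, DESeq2 or limma voom. For Klf4, a factor of monocyte differentiation, the estimate was -0.27 (SE 0.12). With group means subtracted, Spi1 and the genes under PU.1 had a Pearson's r of 0.45 (permutation p = 0.212, adjusted p = 0.425 over 10 relations). It was -0.05 without the 2 farthest libraries. Irf8 and the genes under IRF8 had an r of -0.38 (permutation p = 0.328, adjusted p = 0.492).

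Relatives of the 9 factors had medians near 0. Over 10 ETS, 8 IRF, 8 MAF and CNC and 9 nuclear receptor genes, the median log2 fold changes were -0.05, -0.07, -0.03 and 0.05. None of these genes passed the FDR by edgeR, DESeq2 or limma voom, and 2 were higher and 2 lower at an unadjusted p under 0.05. Spib, the B cell relative of Spi1 and Spic, was measured at 204 ± 35.01 CPM in Fpr2KO and 158 ± 23.7 CPM in WT (SD, n = 5 each; log2 fold change 0.37, SE 0.13, FDR = 0.382 by edgeR). B cell markers had a median of 0.18 over 10 genes. Of these, 9 had higher estimates in Fpr2KO, 3 of them at an unadjusted p under 0.05, and edgeR, DESeq2 and limma voom called 0. The estimate was -0.57 (SE 0.23) for Ets2, a growth factor responsive ETS gene, -0.32 (SE 0.12) for the retinoic acid receptor gene Rara and 0.29 (SE 0.13) for Irf3, of the antiviral response. It was 0.10 (SE 0.17) for Bach2, the lymphoid relative of Bach1. Among 19 other regulators of macrophages, 1 was higher and 2 lower at an unadjusted p under 0.05, with a median of -0.05 and none past the FDR by any of the 3 tools. These were the inhibitor of differentiation gene Id3 (0.34, SE 0.16), Egr2 (-0.24, SE 0.10) and Klf4.

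Corrected for exon length, the 9 genes fell into a higher and a lower set. By the mean over the 10 libraries Spi1 came first, at 93.6 ± 12.1 CPM per kilobase of annotated exon in Fpr2KO and 96.4 ± 11.4 in WT (SD, n = 5 each). Cebpb followed at 76.0 ± 12.3 in Fpr2KO and 101 ± 22.1 in WT, Spic at 82.3 ± 17.9 in Fpr2KO and 75.4 ± 13.1 in WT, Irf8 at 61.6 ± 5.84 in Fpr2KO and 57.3 ± 5.10 in WT, and Nr1h3 at 54.5 ± 7.45 in Fpr2KO and 53.1 ± 14.2 in WT. The group means gave other orders, with Cebpb above Spi1 in WT and Spic above Cebpb in Fpr2KO. Neighbours among these 5 overlapped in their ranges over the 10 libraries and cannot be ordered beyond that spread. All 5 lay above Cebpa, whose highest library reached 37.4 CPM per kilobase and stood just under the lowest of Nr1h3 at 37.5. Cebpa averaged 20.2 ± 2.70 CPM per kilobase in Fpr2KO and 26.5 ± 6.86 in WT, Maf 20.6 ± 3.77 in Fpr2KO and 20.3 ± 3.74 in WT, and Pparg 18.9 ± 2.21 in Fpr2KO and 18.5 ± 2.34 in WT. Bach1 was the lowest of the 9, at 12.6 ± 1.22 in Fpr2KO and 15.9 ± 1.92 in WT. With the length of the longest transcript in place of all exons, the same 5 genes stayed above the other 4, and Spic rather than Spi1 came first.

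**Figure D5:**
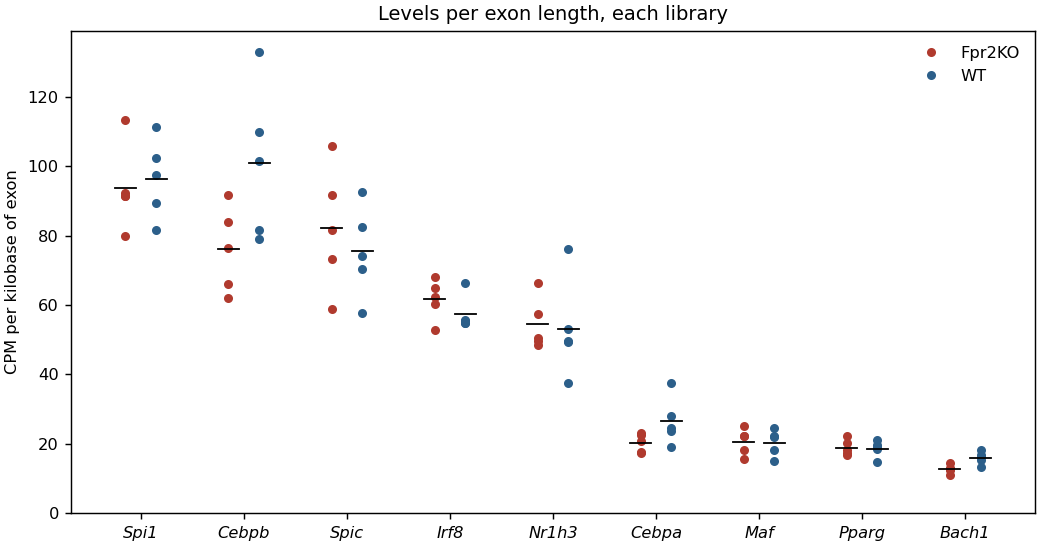
Level of each gene in CPM per kilobase of annotated exon (vertical axis, from 0) in each Fpr2KO library (red, left) and each WT library (blue, right), with group means as bars. Genes are ordered by their mean over the 10 libraries. All libraries of the 5 genes on the left lie above all libraries of Cebpa, and Bach1 has the lowest mean.

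The 9 genes also varied by different amounts between samples of a group. The coefficient of variation (SD over mean, of CPM) was 21.8% in Fpr2KO and 17.3% in WT for Spic, and 18.3% in Fpr2KO and 18.4% in WT for Maf. For Irf8 it was 9.47% in Fpr2KO and 8.9% in WT, and for Spi1 12.9% in Fpr2KO and 11.9% in WT. The median over 5805 genes at a mean log2 CPM of 5 or more, which include all 9, was 10.6% in Fpr2KO and 9.33% in WT. Nr1h3 and Cebpa varied more in WT (26.7% and 25.8%) than in Fpr2KO (13.7% and 13.4%), a difference in spread that was not tested. Irf8 and Bach1 went in opposite directions across libraries (r = -0.75 with group means subtracted, permutation p = 0.0253, adjusted p = 0.318 over 36 pairs; rho = -0.75, permutation p = 0.014), and r was -0.77 without the 2 farthest libraries, but the pair did not pass the adjustment. The genes most like Irf8 were the ribosomal protein genes Rps2 and Rps13 and the mitochondrial ribosomal protein gene Mrpl11, with r between 0.97 and 0.98. Those most like Spi1 were Syngr2, Cln3 and Lasp1 (r between 0.96 and 0.98), and Il18bp and Maged1 were among the 3 most like Maf (0.96 and 0.95). Pparg went with Cnot8, Vcam1 and Gm16286 (0.94 to 0.97), Nr1h3 with 1700037H04Rik, Bco2 and Pla2g15 (0.93 to 0.94), Cebpa with Pofut2, Slc31a2 and Tax1bp3 (0.94 to 0.97), and Cebpb with Pitpnm1, Slc15a4 and Metrnl (0.96 to 0.98). Each is a description over 10 libraries, the highest among 9357 protein-coding genes at a mean log2 CPM of 3 or more.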

How the data were processed

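RNA sequencing of polyadenylated RNA was made from 10 samples of splenic macrophages with the NEBNext Ultra II kit, per the labels' protocols. The authors deposited raw read counts per Ensembl gene, not normalised. The submitters' processing notes name HTSeq 0.10.0, FastQC 0.10.1 and the builds mm10 and GRCm38. For the aligner, the strand setting and the annotation release: not given in the sources used here.

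Symbols, coordinates and exon lengths came from GENCODE M21 (GRCm38), which matched 52133 of 55414 identifiers, the rest holding at most 0.135% of a library's counts. Promoter sequences came from RefSeq GRCm38.p6, whose table matched 7 of the 9 genes.

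Libraries held 15865820 to 19060188 counts, and each of 20 replicate pairs differed by more than sampling noise (chi-square per degree of freedom 11.2 to 60.9). Counts were tested in R 4.3.3 with edgeR 4.0.16 (filterByExpr, TMM, robust quasi-likelihood F test, two-sided, Benjamini-Hochberg over 14669 genes, FDR threshold 0.05, no covariate), with checks in DESeq2 1.42.0 and limma 3.58.1. The fit was tested on simulated data. SE is the log2 fold change divided by the square root of F. Log2 CPM used a prior count of 2. List levels are mean log2 CPM of tested genes. Correlations subtract group means and permute libraries within groups (14400 orders, two-sided). The 2 farthest libraries lie farthest from the median after that subtraction. They are chosen by the marker list in relations with such a list, and by the factor in relations with a target list. In pairs of the 9 genes they are chosen by the gene named earlier in the opening list. The 9 genes and the 31 gene lists were chosen with earlier results of these data known. Named genes are the 9, Fpr2, up to 4 genes of a list in order of p-value, and the 3 most correlated genes of each of the 9. The exceptions are Adgre1, Hmox1, Slc40a1, Vcam1, Csf1r, Abca1, Abcg1, Bach2, Nr4a1 and the genes overlapping exons, named for their roles after their values were seen. Some genes that this rule selects, and 1 list, are not reported here.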

Additional observations from a re-analysis of the deposited data

Results flagged for a closer look

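Each group of 5 libraries was examined for a library far from the other 4 in the 9 genes and in 17 marker and quality lists. Of 52 such groups 4 held one, and chance gives about 1 in 20. Irf8 in WT replicate 4, at 469 CPM, lay 0.924 of the group's range from its nearest neighbour. The macrophage markers lay 0.19 below the WT mean on the log2 scale (-0.19) in Fpr2KO replicate 4, the library in which Spic and Maf were also lowest among the Fpr2KO samples. NK cell markers were at -0.84 relative to the WT mean in WT replicate 3, the library with the highest Cebpa and Cebpb. Platelet markers were at -0.19 in Fpr2KO replicate 1, above the other Fpr2KO libraries.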

How the results depend on the processing

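In 19 alternatives, none of the 9 genes passed the FDR. Bach1, Cebpa and Cebpb kept a negative estimate in every one. Of 171 estimates 158 kept their direction and 13 reversed, all of genes with an estimate near 0: with library sizes scaled to macrophage genes Maf was at -0.018 and Pparg at -0.012, and leaving out 1 library gave ranges of -0.083 to 0.10 for Maf, -0.053 to 0.075 for Pparg, -0.073 to 0.20 for Nr1h3 and -0.12 to 0.0091 for Spi1. The count of genes past the FDR, 10 over all genes, was 62 with no filter, 3 with a stricter filter, 30 with macrophage scaling and 185 with DESeq2. It lay between 8 and 51 with 1 library left out, with 51 without WT replicate 5 and 26 without WT replicate 4 or Fpr2KO replicate 2. With the replicate number as a block it was 64, with Ets2, Cd163, F13a1, Siglec1, Csf3r and Lcn2 among the calls in the lists described. With group means subtracted, same-numbered samples had r between -0.24 and 0.29, and 2 of 5 were closest to their own number. Whether the numbers pair some of the samples cannot be told from these values. Of the 27 genes found most alike, 13 were also found when group means were kept. The cause of these changes was not tested.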

Other observations

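Some lists of other cells and processes also differed in their estimates. All 14 erythroid markers had higher estimates in Fpr2KO (median log2 fold change 1.23), 13 at an unadjusted p under 0.05. All 10 cell cycle genes had higher estimates (median 0.63), 8 at that level. For both lists edgeR and limma voom called 0 genes at the FDR, and DESeq2 called 2 erythroid and 7 cell cycle genes. Of 13 mitochondrially encoded genes 12 had lower estimates (median -0.37), and they held between 3.13% and 5.85% of counts in Fpr2KO and between 4.71% and 5.95% in WT. Of these 13 genes 5 were at an unadjusted p under 0.05, and edgeR, DESeq2 and limma voom called 0. All 7 platelet markers tested had lower estimates (median -0.77), 4 at an unadjusted p under 0.05, with 0 called by edgeR or limma voom and 2 by DESeq2. The mean log2 CPM of the cell cycle genes relative to the WT mean overlapped between the groups, at 0.37 to 0.68 in Fpr2KO and -0.36 to 0.43 in WT. That of the neutrophil markers did not, at -0.99 to -0.23 in Fpr2KO and -0.11 to 0.10 in WT. Nor did that of the erythroid markers, at 0.90 to 1.95 in Fpr2KO and -1.54 to 0.80 in WT. The summed CPM of both lists did overlap between the groups. Of all tested genes taken singly, 1.39% had groups that did not overlap, which is not a background for the mean of a list.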
